A study of Mus musculus with 186 samples.

Results

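The constructs described here are the promoter of mouse Pwp2 in its own sequence and 10 versions of it from which CpG dinucleotides were removed. They are the rows named WT, WTmut_CG and allCGmutWT of 1 mutant library, 11 of its 23 constructs and 11 of 572 construct rows in all library tables of the study. Each construct is 457 bp long and holds 39 (WT), 35, 29, 23 or 19 CpGs. WTmut_CG_16, WTmut_CG_10 and WTmut_CG_4 keep 16, 10 or 4 of the 20 CpGs that the design allowed to change, and each exists in 3 versions, such as WTmut_CG_16, WTmut_CG_16.1 and WTmut_CG_16.2, with a different random choice of CpGs. allCGmutWT lost all 20. The remaining 19 CpGs were not changed, since the design took only CpGs from windows of 10 bp whose mutation had little or no effect on activity.

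Promoter activity was measured by TrAC-seq, in which a pool of promoters, each linked to short random barcodes (BCs), is placed by cassette exchange at a single site in the beta-globin locus of mouse embryonic stem cells (ESCs), and BC reads in RNA are divided by BC reads in genomic DNA. The groups used here are wild-type TC-1 ESCs and TKO cells, the same line after deletion of the DNA methyltransferases Dnmt1, Dnmt3a and Dnmt3b by CRISPR-Cas9, which has no DNA methylation. Each group has 3 replicates of paired RNA and genomic DNA. Nothing says that the replicates of a group came from separate cultures, so each p-value refers to the variation among these samples alone, and that variation may be technical. The insertion site is silent in ESCs, so the values describe a reporter and not the endogenous gene.

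CpG islands are stretches of vertebrate genomes that keep a high density of CpGs and are usually free of DNA methylation. They contain the promoters of most broadly active genes. Some of their CpGs belong to binding motifs of transcription factors such as GABPA, SP1 and NRF1, and the others lie between motifs. The normalized CpG density (OE) divides the number of CpGs by the number that the C and G content of the sequence would give by chance. Pwp2 is an essential gene for a WD-repeat protein of the small subunit processome, which processes ribosomal RNA.

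The natural insert lies at chr10:77647729-77648156 on the minus strand (mm9, 428 bp). It reaches from upstream of the gene through exon 1 into intron 1. The Pwp2 gene spans chr10:77633655-77647894, and exon 1 ends at 77647816. Of the 37 CpGs of this insert, 19 lie upstream of the annotated start, 6 in exon 1 and 11 in intron 1, and 1 spans the annotated start. The construct has 29 further bases with 2 CpGs. The upstream part is shown because it holds more CpGs than any other annotated part of the promoter, with every CpG in capitals and read 5′ to 3′ from chr10:77647895-77648156, minus strand, mm9.

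Pwp2 upstream: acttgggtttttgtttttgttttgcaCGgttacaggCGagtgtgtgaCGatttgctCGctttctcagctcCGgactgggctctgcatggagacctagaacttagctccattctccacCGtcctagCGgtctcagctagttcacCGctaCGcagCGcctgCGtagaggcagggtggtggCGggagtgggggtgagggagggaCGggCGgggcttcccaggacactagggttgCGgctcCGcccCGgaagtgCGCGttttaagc

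A window of 10 bp near its end, ccCGgaagtg at chr10:77647907-77647916, contains a GABPA-type motif and, by the paper, part of an SP1 motif. It gave the lowest activity of the 42 windows of the scan. Its mean was -2.81 ± 0.16 (SD, n = 3) on the log2 scale relative to the unmutated promoter of that pool. Another window with a GABPA-type motif, tcCGgaagtg at chr10:77647867-77647876, showed no loss, at 0.15 ± 0.42 (SD, n = 3). Which motif lowered activity was not tested here. The second lowest window of the scan was ggtgagCGgc at chr10:77647807-77647816, at -2.25 ± 0.17 (SD, n = 3). It covers the last base of exon 1 and the first bases of intron 1. Windows with a mean below -1 held 5 of the 37 CpGs in all windows. The 19 unchanged CpGs of the constructs were thus not confined to windows with such strong effects. The window coordinates assume that the insert begins 14 bases into the construct, and a start that differs by 1 base would shift them. Which CpGs were changed in each construct is not given in the sources used here, so activity could not be assigned to single positions.

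The composition of the constructs gives the kind of change. Relative to WT with its 110 C, the constructs with 35, 29, 23 and 19 CpGs had 106, 100, 94 and 90 C, while G stayed at 164 or 165. Each CpG lost was therefore a C lost. G+C content fell with it by 4.16 percentage points from WT to allCGmutWT, where it was 55.8%, and OE from 0.988 to 0.585. The effects of the number of CpGs and of the number of C cannot be told apart within these 11 constructs.

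Every construct was measured in all 6 replicates. A replicate held 1686, 400 and 422 BCs in wild-type cells and 315, 299 and 335 in TKO cells, with 9 to 230 BCs per construct and a median of 21.5. The first wild-type replicate was therefore covered more deeply than all others. The lowest log2 activity of any of the 66 values was -1.17, far above the lowest measurable value of -4.32. The activity of WT, a linear ratio, was 0.852, 1.33 and 1.19 in wild-type cells and 1.06, 0.798 and 0.938 in TKO cells. All relative values below are log2 of the activity divided by that of WT in the same replicate, so an error in WT moves all of them together.

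Removal of 4 CpGs did not lower activity. All 3 constructs with 35 CpGs lay above WT in all 6 replicates, and they were the highest group in both cell lines. The 3 values of a replicate share its WT value, so they are not independent. WTmut_CG_16 had log2 activities relative to WT of 0.74, 0.26 and 0.73 in wild-type cells and 0.41, 0.88 and 0.63 in TKO cells. No value of either cell line reached down to WT. Its mean was 149% of WT in wild-type cells (0.58 ± 0.21 SE, n = 3, adjusted p = 0.0104) and 156% in TKO cells (0.64 ± 0.21 SE, n = 3, adjusted p = 0.0039) with limma. It rested on 9 to 32 BCs per replicate, fewer than most other constructs.

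WTmut_CG_16.2 reached 0.62, 0.14 and 0.58 in wild-type cells and 0.45, 0.39 and 0.28 in TKO cells. Both cell lines stayed above WT, with the lowest value in the second wild-type replicate. With limma it was higher than WT in wild-type cells (0.45 ± 0.21 SE, adjusted p = 0.0455), and in TKO cells it did not pass (0.37 ± 0.21 SE, adjusted p = 0.101). WTmut_CG_16.1 gave 0.25, 0.26 and 0.19 in wild-type cells and 0.27, 0.57 and 0.05 in TKO cells. Its values were above WT in every replicate, but neither mean passed the test (adjusted p = 0.295 and 0.205 with limma).

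Activity at 29 CpGs was near that of WT. The 3 constructs averaged 0.17 ± 0.19 in wild-type cells and 0.03 ± 0.38 in TKO cells (SD over 3 replicates), which is 112% and 102% of WT. None of the 3 passed the limma test against WT in either cell line. WTmut_CG_10.1 had 0.51, 0.38 and 0.26 in wild-type cells but -0.28, 0.22 and -0.17 in TKO cells, so that its ranges in the cell lines did not overlap. It did not pass the test between cell lines (-0.46 ± 0.29 SE, adjusted p = 0.416 with limma). Its mean of 0.38 in wild-type cells (adjusted p = 0.0828 with limma) passed with weights by BCs (0.45, adjusted p = 8.99e-05), a mean-variance trend (adjusted p = 0.0353) or its own spread (adjusted p = 0.0442). WTmut_CG_10 and WTmut_CG_10.2 had means of 0.06 each in wild-type cells and 0.08 each in TKO cells. The values of WTmut_CG_10.2 in TKO cells, -0.56, 0.80 and -0.01, were the widest of all constructs and rested on 12 to 15 BCs.

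At 23 CpGs activity differed among the versions. WTmut_CG_4 had 0.35, 0.06 and 0.23 in wild-type cells and -0.46, 0.48 and 0.41 in TKO cells, and passed the test against WT in neither (means 0.21 and 0.14, adjusted p = 0.333 and 0.611 with limma). Without the first replicate it was higher than WT in TKO cells (0.44, adjusted p = 0.0429 with limma). WTmut_CG_4.2 had -0.15, -0.74 and -0.52 in wild-type cells and -0.93, -0.59 and -0.86 in TKO cells. It was below WT in 6 of 6 replicates, at 72.1% of WT in wild-type cells (-0.47 ± 0.21 SE, n = 3, adjusted p = 0.0363 with limma) and at 57.7% in TKO cells (-0.79 ± 0.21 SE, adjusted p = 0.000374 with limma).

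The third version with 23 CpGs passed the test in 1 of the cell lines. WTmut_CG_4.1 had -0.13, -0.46 and -0.73 in wild-type cells and -0.16, 0.54 and -0.01 in TKO cells. It was lower than WT in wild-type cells (-0.44 ± 0.21 SE, adjusted p = 0.0482 with limma), a call that was lost when values were weighted by BCs (adjusted p = 0.0516) or when each construct was given its own spread (adjusted p = 0.107). In TKO cells it lay on both sides of WT and did not pass (0.12 ± 0.21 SE, adjusted p = 0.644). The difference between cell lines, 0.56 ± 0.29 SE, did not pass its own test (adjusted p = 0.307 with limma), and the ranges overlapped.

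Without any of the 20 CpGs, mean activity was the lowest of the 11 constructs in both cell lines. allCGmutWT had -0.27, -0.78 and -0.57 in wild-type cells and -1.23, -0.85 and -1.03 in TKO cells, below WT in 6 of 6 replicates and on 40 to 146 BCs. Every TKO value was lower than every wild-type value, though allCGmutWT did not pass the test between cell lines (adjusted p = 0.396 with limma). In wild-type cells it was not distinguished from WTmut_CG_4.1 and WTmut_CG_4.2 (0.10 and 0.07 lower, adjusted p = 0.595 and 0.717 with limma), and in the third replicate WTmut_CG_4.1 was lowest. It kept 68.8% of the activity of WT in wild-type cells (-0.54 ± 0.21 SE, n = 3, adjusted p = 0.0163 with limma) and 48.8% in TKO cells (-1.03 ± 0.21 SE, adjusted p = 4.96e-06 with limma).

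In total, 2 of the 10 mutants were higher and 3 lower than WT in wild-type cells, against 9.09% higher and 68.2% lower of all 22 constructs tested, of which 11 carry replaced sequence. In TKO cells 1 was higher and 2 were lower, against 4.76% and 61.9% of 21 constructs. The median over the 10 mutants was 0.14 in wild-type and 0.10 in TKO cells, and over all constructs tested -1.40 and -1.53. limma found the same spread for every construct, and its 86 degrees of freedom are too many for values that share WT. Calls in wild-type cells depended on single replicates. Without the third replicate none of the 10 was called in either direction, without the second none was lower, and without the first 1 was higher and 3 were lower. In TKO cells both lower calls were made without each replicate, while the number of higher calls was 2 without the first and 0 without the third.

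Mutants were also compared with each other in pairs, where the activity of WT cancels. The estimates follow from the same construct means, so their order is not independent of the values above, while their errors no longer contain that of WT. The difference in log2 activity was taken within a replicate and tested with limma, adjusted over all 253 pairs of the library in wild-type and 231 in TKO cells. Since 83.4% and 82.3% of all those pairs were called, the adjusted p lies close to the unadjusted one. Each construct with 35 CpGs was higher than allCGmutWT in both cell lines (3 of 3 pairs), on average by 0.96 in wild-type and 1.47 in TKO cells. So was each construct with 29 CpGs, by 0.71 and 1.06. Against constructs with 23 CpGs, those with 35 were higher in 6 of 9 pairs in wild-type and in 5 of 9 in TKO cells, and those with 29 in 6 of 9 and 3 of 9. Single versions carried these counts. In wild-type cells none of the calls was against WTmut_CG_4. In TKO cells all 3 calls of the constructs with 29 CpGs were against WTmut_CG_4.2, and in the other 6 pairs the construct with 23 CpGs had the higher mean, with differences of -0.22 to -0.04 (29 minus 23 CpGs) that did not pass. Between 35 and 29 CpGs 3 of 9 and 4 of 9 pairs passed, all with more activity at 35 CpGs.

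Over all pairs of the 11 constructs with different numbers of CpGs, now with WT included, 27 of 46 passed in wild-type and 23 of 46 in TKO cells. Of all pairs of the library, 83.4% and 82.3% passed. Pairs with WT still contain its error. In 25 and 22 of the 27 and 23 pairs that passed, the construct with more CpGs was the more active one. The exceptions were WT against WTmut_CG_16 in both cell lines and WT against WTmut_CG_16.2 in wild-type cells. Without the third replicate 13 of the 46 pairs passed in wild-type cells.

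Among constructs with the same number of CpGs, the pairs that passed the test had 23 CpGs. In wild-type cells WTmut_CG_4 was higher than WTmut_CG_4.1 by 0.65 ± 0.19 SE (adjusted p = 0.0041 with limma) and than WTmut_CG_4.2 by 0.69 ± 0.19 SE (adjusted p = 0.0027 with limma). In TKO cells WTmut_CG_4.2 was the outlying one, lower than WTmut_CG_4 by 0.93 ± 0.19 SE (adjusted p = 0.000172 with limma) and than WTmut_CG_4.1 by 0.92 ± 0.18 SE (adjusted p = 0.000111 with limma). These are 2 of 9 such pairs in each cell line. The range of the 3 construct means at 23 CpGs was 1.61-fold in wild-type and 1.91-fold in TKO cells, at 29 CpGs 1.25-fold and 1.12-fold, and at 35 CpGs 1.27-fold in both. With a minimum of 10 BCs, WTmut_CG_16 was also higher than WTmut_CG_16.1 in wild-type (0.34, adjusted p = 0.0418 with limma) and TKO cells (0.44, adjusted p = 0.0414), and without the second replicate it was so in wild-type cells (0.52, adjusted p = 0.0416). In wild-type cells this minimum removed no value of the pair and left its estimate unchanged. Its SE fell from 0.18 to 0.16 when thinly covered constructs of the library dropped out of the fit. The 95% interval of WTmut_CG_16 minus WTmut_CG_16.1 was -0.04 to 0.73 in both cell lines, and that of WTmut_CG_10.1 minus WTmut_CG_10.2 was -0.09 to 0.72 in wild-type cells.

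The 3 versions with 23 CpGs have the same number of C and G and the same OE of 0.678. None of the deposited sequence measures therefore differs among them. These versions rested on 14 to 41 BCs per replicate in wild-type cells and on 10 to 14 in TKO cells. Whether the sampling of BCs contributed to their differences was not tested. As a description, 71.1% of the variance of the 11 construct means lay between CpG numbers in wild-type cells and 72.7% in TKO cells. The remaining 28.9% and 27.3% lay within them. Both parts contain the error of the means, so the latter is not the share due to versions. The levels of 19 and 39 CpGs hold 1 construct each, so they add nothing to it and count wholly as between CpG numbers. With so few constructs per number, unrelated values would also place part of the variance there. The whole range of the 11 means was 2.17-fold in wild-type and 3.19-fold in TKO cells.

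The order of the 11 constructs was partly shared by the cell lines. WTmut_CG_16 and WTmut_CG_16.2 were first and second, WT had rank 8 of 11, WTmut_CG_4.2 rank 10 and allCGmutWT was last in both. WTmut_CG_10.1, however, had rank 3 in wild-type and rank 9 in TKO cells, and WTmut_CG_4.1 rank 9 and rank 5. Most steps of this order were within error. Of the 10 pairs of neighbours in each line, 1 differed by limma, namely WT and WTmut_CG_4.1 in wild-type cells (0.44, adjusted p = 0.0425) and WTmut_CG_10.1 and WTmut_CG_4.2 in TKO cells (0.71, adjusted p = 0.000963). Across the 11 constructs, Pearson's r between replicates was 0.84 to 0.95 in wild-type and 0.72 to 0.90 in TKO cells, and Spearman's rho 0.76 to 0.95 and 0.46 to 0.76. Between the means of the cell lines r was 0.80 and rho 0.75. These points share the promoter sequence and, within a cell line, the replicate libraries.

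Activity rose with the number of CpGs in every replicate. Across the 11 constructs Spearman's correlation with CpG number was 0.57 ± 0.08 in wild-type cells and 0.57 ± 0.24 in TKO cells (mean ± SD of 3 replicates), and with OE 0.53 ± 0.04 and 0.57 ± 0.25. CpG number and OE rank the constructs almost alike. The constructs share 1 promoter and its 19 unchanged CpGs, so this is a description. The slope was 0.04 ± 0.01 per CpG on the log2 scale in wild-type and 0.05 ± 0.01 in TKO cells (SD, n = 3), a 1.03-fold and 1.04-fold gain per CpG. The slopes did not differ between cell lines beyond their spread, with a difference of 0.01 per CpG (TKO minus wild type, p = 0.5, two-sided exact permutation test, where the smallest p that 3 against 3 allows is 0.1).

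The rise did not run to the end of the scale. By level, mean log2 activity relative to WT in wild-type cells was -0.54 ± 0.26 at 19 CpGs, -0.23 ± 0.22 at 23, 0.17 ± 0.19 at 29 and 0.42 ± 0.17 at 35, against 0 for WT at 39 (SD over 3 replicates). In TKO cells it was -1.03 ± 0.19, -0.18 ± 0.33, 0.03 ± 0.38 and 0.44 ± 0.16. The highest of the 11 constructs had 35 CpGs in 2 of 3 wild-type and in 3 of 3 TKO replicates. The exception was the second wild-type replicate, in which WTmut_CG_10.1 with 29 CpGs was highest. WTmut_CG_16 itself was highest in 2 of 3 replicates of each line. WT took ranks 6 to 8 of 11 in wild-type cells and ranks 4 to 9 in TKO cells.

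A quadratic curve through the construct means had its maximum at 33.6 CpGs in wild-type and at 33.5 CpGs in TKO cells. In single replicates the maximum lay between 31.9 and 35.04 CpGs in wild-type cells and between 31.3 and 38.9 in TKO cells. Its quadratic term was -0.00447 ± 0.000688 in wild-type and -0.00571 ± 0.00279 in TKO cells (mean ± SD of 3 replicates, log2 per squared CpG). The descent beyond 35 CpGs rests on WT alone, as no other construct of this set has more than 35. WT was the best covered construct, with 55 to 230 BCs per replicate. Without WT the slope was 0.06 per CpG in wild-type and 0.07 in TKO cells.

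No mutant passed the limma test for a difference between TKO and wild-type cells relative to WT. Of all 21 constructs tested, 0.0% were called higher and 4.76% lower in TKO cells, and the mutants gave 0 calls at an unadjusted p under 0.05 as well. Differences between TKO and wild-type cells ranged from -0.49 ± 0.29 SE for allCGmutWT (adjusted p = 0.396) to 0.56 ± 0.29 SE for WTmut_CG_4.1. The 95% interval for allCGmutWT was -1.07 to 0.09 and that for WTmut_CG_4.1 was -0.02 to 1.14. Each held both no change and a change of about 1 log2 unit, downward for allCGmutWT and upward for WTmut_CG_4.1. For WTmut_CG_16 the interval was -0.52 to 0.64. This lack of calls depended on the handling of BCs and replicates. With values weighted by BCs 2 mutants were lower in TKO cells, and without the first replicate 1 was higher.

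The same numbers of CpGs gave far less activity when the sequence around them was replaced. The other 11 constructs of the series in this library have CpG-free sequence in the uncritical regions, with CpGs added back at the same positions and in the same numbers, 19 to 39. Their construct means lay between -3.99 and -0.90 in wild-type and between -4.05 and -1.53 in TKO cells, and the native group was higher at every CpG number, by 1.95 to 3.45 and by 1.82 to 3.44. In TKO cells 10 of them had enough BCs to be used. These constructs were thinly covered, and a minimum of 10 BCs left 4 in wild-type and 1 in TKO cells. The slope on CpG number was lower in the native series in 3 of 3 replicates of each line, by -0.07 ± 0.02 per CpG in wild-type and -0.06 ± 0.01 in TKO cells (native minus artificial, SD, n = 3, p = 0.25 in each, exact sign-flip test, the smallest p that 3 replicates allow). The least active of the artificial constructs had log2 activities of -3.84 and -4.16, close to the lowest measurable value.

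Constructs in which whole regions of Pwp2 lost their CpGs outside bound motifs, measured in another pool and relative to the WT of that pool, spread more widely. The 10 of them with 24 to 32 CpGs had means from -4.31 to 0.12 in wild-type and from -3.91 to 0.52 in TKO cells, on 1 to 42 BCs. With the critical windows kept, the constructs with 23 to 35 CpGs described here stayed between -0.47 and 0.58 in wild-type cells and between -0.79 and 0.64 in TKO cells. The pools were normalized separately and the difference was not tested. Log2 activity of the unmutated promoter was 0.14 ± 0.34 in the library used here and 1.56 ± 0.27 in that pool (wild-type cells, SD, n = 3).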

How the data were processed

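Activity was deposited by the authors as a ratio. They scaled BC reads of RNA and genomic DNA to the smaller total, kept BCs with more than 20 DNA reads, added 0.05 to the enrichment and took the geometric mean over the BCs of a construct. Reads of mutant libraries were matched to constructs by string distance in R, and those of the housekeeping library with Bowtie on mm9, whose version is not given in the sources used here. Activity relative to WT was deposited by the authors as a ratio, OE likewise, and G+C content as a percent. BC numbers were used as deposited. G and C were solved from G+C content and OE.

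Values were converted to log2. A construct was used in a cell line if 2 or more replicates held 3 or more of its BCs. For constructs and pairs, p-values came from limma 3.58.1 (R 4.3.3) and were adjusted by Benjamini-Hochberg over all constructs or all pairs, with a threshold of 0.05. Slopes were least-squares fits per replicate. Python 3.11.15, numpy 2.4.6, pandas 2.3.3 and scipy 1.17.1 were used. The limma test against WT was tried on simulated data with independent noise and without the error of a shared WT. It called 2.94% of constructs without an effect, 54.5% at 0.5 and 99.6% at 1 on the log2 scale. The tests of pairs and slopes were not simulated. Read totals are unknown, so precision is known through BC numbers and replicate spread. Coordinates are 1-based on mm9 (NCBIM37) with GENCODE M1. All 11 constructs are named. The constructs and lists were chosen with earlier results of these data known. Alternatives were replicates left out, the BC minimum, the spread model, weights, centring, the replicate block and constructs left out. The spread of each construct on its own was added as an alternative after seeing the data.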

Additional observations from a re-analysis of the deposited data

How the results depend on the processing

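Leaving out each replicate in turn gave 0 to 2 higher and 0 to 3 lower mutants in wild-type cells, 0 to 2 higher in TKO cells and 0 to 1 higher in TKO than wild-type cells. It gave 1 to 3 called pairs of equal and 13 to 25 of different CpG number in wild-type cells. The difference in slope (TKO minus wild type) was between -0.0045 and 0.0178, reversed without replicate 1. Deviations of single constructs did not go together in same-numbered replicates (r = -0.39, -0.32 and -0.01 over 21 constructs). Between replicates with different numbers r was -0.23 to 0.44. A shift shared by all constructs of a replicate cannot show in these values, so they do not settle whether the numbers pair the replicates. With the replicate block, 0 mutants were higher and 0 lower in wild-type cells, 1 and 2 in TKO cells, and the slope difference was 0.0102 (p = 1.0, exact permutation within numbers). In TKO cells 2 mutants were higher with a mean-variance trend and 2 with the spread of each construct on its own, the latter chosen after seeing the data. Between cell lines 2 were lower when weighted by BCs and 1 was higher when centred on all constructs. Slopes were 0.0578 and 0.0693 without WT (wild-type and TKO cells) and 0.0332 without allCGmutWT in TKO cells, where the slope difference was -0.0016. Single replicates moved the curve's maximum to 31.9 (wild-type replicate 1) and 38.9 (TKO replicate 1) and the highest construct to 29 CpGs (wild-type replicate 2). A minimum of 10 BCs left 1 artificial construct in TKO cells, so its slope could not be fitted. The other 143 counts, slopes and maxima kept their direction. Among them, counts stayed within 1.5 times, and maxima and native slopes of a cell line within their spread. Differences between slopes were judged by direction alone, and some moved beyond their spread. Native minus artificial, the slope in wild-type cells was -0.0674 ± 0.0162 (SD) and -0.0893 when weighted by BCs. In TKO cells it was -0.0591 ± 0.0115 (SD), with -0.0412 without WT and -0.0772 without allCGmutWT. Of 300 values of single mutants 273 kept their call, 17 lost and 10 gained one. The 3 replicates and BC numbers down to 9 limit what could be detected.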
